A study of Mus musculus with 16 samples.

Results

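New RNA made in erythroid cells carrying the Nan mutant of the transcription factor KLF1 was set directly against new RNA made in the same parental cells carrying normal KLF1. The comparison covers 4 of the 16 samples of the series, 2 libraries of each line, and all 1556 genes of the authors' 4sU table were compared. Both lines derive from K1, a mouse erythroblast line that has no KLF1 of its own. The K1-ER line carries the transgene KLF1-ER and the K1-NanER line the transgene Nan-KLF1-ER, in which the factor is fused to the hormone-binding part of the oestrogen receptor so that 4-hydroxytamoxifen drives it into the nucleus. Cells of both lines received 200 nM 4-hydroxytamoxifen, and RNA made during 1 h was tagged with 500 uM 4-thiouridine (4sU), captured and sequenced. The K1-ER libraries came from clones A and C and the K1-NanER libraries from clones B and X. Parental K1 cells, whose levels are given for reference, had no transgene and received the same treatment per the labels. Binding of each factor was measured in its own line by chromatin immunoprecipitation with 1 library and 1 input each, after 3 h of 200 nM 4-hydroxytamoxifen. The remaining samples are RNA of 3 Nan/+ and 3 wild-type (+/+) fetal livers at embryonic day 14.5.

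KLF1 is a zinc finger activator of red cell genes. It binds CACCC elements, short C-rich sequences found in the promoters and enhancers of globin, heme and membrane genes, and switches these genes on as red cell precursors mature. In Nan mice a glutamate of the second zinc finger, at the surface that reads the CACCC element, is replaced by aspartate, and heterozygous animals are anaemic. The change alters which version of the element the factor prefers.

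The authors' deposited table gives 1 pooled level per line in FPKM (fragments per kilobase of transcript, scaled to the mapped fragments), not a level per library. The 2 lines were therefore compared without a test, a standard deviation or a depth, and a difference between clones cannot be told apart from a difference between the factors. The ratio printed here is K1-NanER over K1-ER on the log2 scale, with levels under 0.1 FPKM raised to that floor, and a gene is counted as higher or lower from 2-fold on. A second limit comes from how the table was made. It lists only genes that the authors called, at a q of at most 0.05, in at least 1 line against parental K1, so genes that never differed from K1 are not among the 1556.

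Sequences bound by KLF1 give the setting for the values that follow. The authors' peak lists name a central 8-base motif for most peaks, and the genes of the table were grouped by the motif of their strongest KLF1 peak. The fifth base, in capitals, is the position at which the commonest motifs differ most:

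KLF1 motif with A at the fifth base, first form: ccccAccc
KLF1 motif with A at the fifth base, second form: ccacAccc
KLF1 motif with G at the fifth base, first form: ccccGccc
KLF1 motif with G at the fifth base, second form: ccacGccc
KLF1 motif with T at the fifth base: ccccTccc

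Promoters of 6 named genes that hold a promoter peak show where motifs of the authors' KLF1 list lie, in these or other forms. Each stretch is the 250 bases before the RefSeq start on build GRCm38.p6, in the direction of the gene, and capitals mark the motif that the authors' list gives for the gene's promoter peak, on either strand. Aqp3 (chr4:41098184-41098433, minus strand), Kcnn4 (chr7:24370013-24370262, plus strand), Atg4d (chr9:21265035-21265284, plus strand) and Map1a (chr2:121289352-121289601, plus strand) were lower in K1-NanER. Slc5a6 (chr5:31048080-31048329, minus strand) and Sec23a (chr12:59012018-59012267, minus strand) were higher:

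Aqp3: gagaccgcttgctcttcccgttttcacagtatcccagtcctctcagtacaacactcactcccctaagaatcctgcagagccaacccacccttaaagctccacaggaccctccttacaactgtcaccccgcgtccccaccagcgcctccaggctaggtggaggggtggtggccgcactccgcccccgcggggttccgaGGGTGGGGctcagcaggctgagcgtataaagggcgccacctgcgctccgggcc
Kcnn4: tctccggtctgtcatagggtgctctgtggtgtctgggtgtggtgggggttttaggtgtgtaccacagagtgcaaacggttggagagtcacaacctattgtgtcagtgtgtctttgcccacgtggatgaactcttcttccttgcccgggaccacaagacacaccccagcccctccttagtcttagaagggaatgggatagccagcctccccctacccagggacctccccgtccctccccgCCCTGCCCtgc
Atg4d: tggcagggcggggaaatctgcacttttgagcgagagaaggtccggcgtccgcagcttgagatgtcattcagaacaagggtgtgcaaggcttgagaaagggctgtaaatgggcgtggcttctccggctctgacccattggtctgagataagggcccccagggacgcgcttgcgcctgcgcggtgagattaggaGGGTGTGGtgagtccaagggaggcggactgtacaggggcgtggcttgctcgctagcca
Map1a: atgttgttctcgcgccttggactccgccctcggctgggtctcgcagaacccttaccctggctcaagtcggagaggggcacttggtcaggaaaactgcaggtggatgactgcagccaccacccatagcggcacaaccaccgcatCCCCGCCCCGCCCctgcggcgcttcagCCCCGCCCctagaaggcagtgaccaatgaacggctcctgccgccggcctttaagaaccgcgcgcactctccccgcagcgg
Slc5a6: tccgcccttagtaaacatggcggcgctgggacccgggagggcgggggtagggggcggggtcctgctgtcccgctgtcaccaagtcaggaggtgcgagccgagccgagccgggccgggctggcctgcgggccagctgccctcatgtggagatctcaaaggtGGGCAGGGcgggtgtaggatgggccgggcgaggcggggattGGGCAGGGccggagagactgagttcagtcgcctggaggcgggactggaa
Sec23a: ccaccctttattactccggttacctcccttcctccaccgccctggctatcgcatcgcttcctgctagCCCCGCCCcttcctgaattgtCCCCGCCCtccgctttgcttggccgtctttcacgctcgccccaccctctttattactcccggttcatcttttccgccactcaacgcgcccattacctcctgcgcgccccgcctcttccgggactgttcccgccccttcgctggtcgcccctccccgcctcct

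The same kind of element stands in promoters on both sides of the comparison. The motif CCNCNCCC, searched on both strands, was found in 73.5% of the 250-base windows of genes lower in K1-NanER and in 77.3% of those of higher genes, beside 72.7% for all genes of the table and 45.9% of all 32851 mouse windows. Windows with CCNCACCC, the form with A at the fifth base, made up 27.5% of the lower and 23.2% of the higher genes' windows, beside 22.7% for all genes of the table and 14.9% of all mouse windows. A RefSeq window was found for 1115 genes, or 71.7% of the table, so these shares leave out the other genes. A match of letters is a description and not a binding site.

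The transgene itself could be read only in part. Klf1 has no row in the table. Esr1, the oestrogen receptor gene whose hormone-binding part is in the fusion, was at 136 FPKM in K1-ER, with 70.3 in K1-NanER and 2.41 in parental K1. The K1-NanER level was 1.93-fold below that of K1-ER, so new RNA assigned to Esr1 also differed between the lines. The part of this difference in the results below was not tested.

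More genes were lower than higher in K1-NanER. Of the 1556 genes, 347 (22.3%) were at least 2-fold lower and 214 (13.8%) at least 2-fold higher, 36.1% in all. The median log2 ratio was -0.26, with lower and upper quartiles of -0.94 and 0.67. The levels of all listed genes summed to 86599 FPKM in K1-ER against 59223 in K1-NanER. At 4-fold the counts were 93 lower and 45 higher. Centring the ratios on the table's median turned the split round, to 239 lower and 350 higher, and centring within classes of locus length made it nearly even, at 250 lower and 257 higher.

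**Figure D1:**
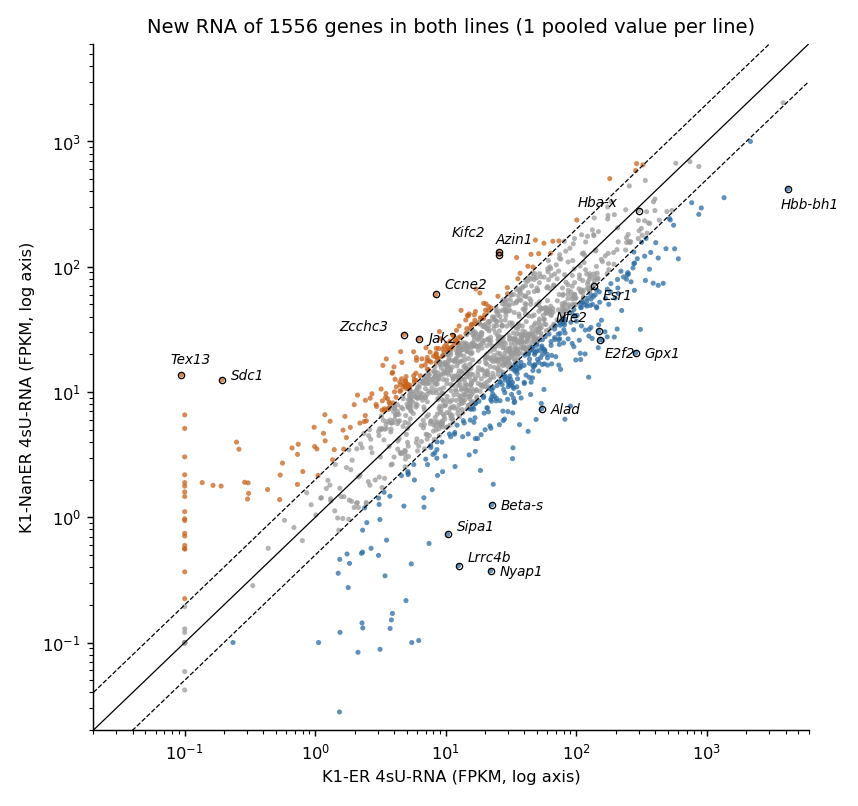
Level of new RNA of each of 1556 genes in K1-ER (horizontal, FPKM, log axis) and K1-NanER (vertical, FPKM, log axis), 1 pooled value per line. The solid line marks equal levels and the dashed lines 2-fold, with 347 lower genes in blue, 214 higher genes in orange and the rest in grey; the column of points at 0.1 FPKM on the left holds genes at the floor in K1-ER.

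The genes furthest below the diagonal were a mixed group with few red cell genes. Nyap1, an adaptor of PI3-kinase signalling best known from neurons (mm9 chr5:138172191-138181226), stood at 22.0 FPKM in K1-ER against 0.375 in K1-NanER, which was 58.8-fold lower. Gm7325 on chromosome 17 (chr17:45737916-45739051) was at 6.19 FPKM against 0.104 FPKM, close to the floor. Lrrc4b, a synaptic adhesion protein (chr7:51697857-51718714), was at 12.5 FPKM against 0.411 FPKM. These 3 genes were near silent in K1-NanER, as they were in parental K1, where their levels were 0.430, 0.1 and 0.593 FPKM. Sipa1, an inhibitor of the small GTPase Rap1, was at 10.3 FPKM in K1-ER against 0.730 in K1-NanER. Map1a, a microtubule-associated protein, was at 5.43 FPKM and 0.425 FPKM. Tmem79, Uap1l1 and Arl4d completed this group, with K1-NanER levels of 1.83, 7.73 and 2.94 FPKM beside K1-ER levels of 23.1, 90.0 and 32.4 FPKM.

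A pair of genes in this group had also fallen against parental K1 in K1-NanER by the authors' deposited table. Tmem79, Uap1l1, Map1a and Nyap1 were below their K1 levels of 5.30, 15.2, 0.906 and 0.430 FPKM without such a call. Gpx1, the glutathione peroxidase that removes hydrogen peroxide in red cells, was at 284 FPKM in K1-ER, 141 in parental K1 and 20.5 in K1-NanER. Fam89b, on chromosome 19, was at 81.6 FPKM in K1-ER, 20.7 in parental K1 and 6.06 in K1-NanER. Fam89b was the 1 gene of the table with opposite calls in the authors' deposited table, where it rose in K1-ER and fell in K1-NanER.

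On the other side, the highest ratio above the floor was that of Sdc1, the cell surface proteoglycan syndecan-1 (chr12:8778202-8800493), at 0.193 FPKM in K1-ER against 12.5 in K1-NanER. Ccne2, a cyclin that drives entry into DNA replication (chr4:11118501-11181406), was at 8.39 FPKM and 60.2 FPKM, a level 7.18-fold higher in K1-NanER. Azin1, an inhibitor of ornithine decarboxylase breakdown, was at 25.6 FPKM and 124 FPKM. Kifc2, a kinesin motor, was at 25.4 FPKM and 131 FPKM. These 4 genes were well above their K1 levels in K1-NanER. Slc22a5, the carnitine transporter, was 5.56-fold higher, and Sec23a, a coat protein of vesicles leaving the endoplasmic reticulum, 5.34-fold higher. Arid4a and Dnmt3b, a chromatin-binding protein and a DNA methyltransferase, were 5.25-fold and 4.48-fold higher, and the growth factor Gdf11 and the retinol dehydrogenase Rdh10 were 4.95-fold and 4.66-fold higher.

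The last members of that group differed because K1-ER was low. Zcchc3, a nucleic acid sensor cofactor, was at 66.6 FPKM in parental K1, 28.7 in K1-NanER and 4.79 in K1-ER. Spred2, an inhibitor of Ras signalling, was at 6.05 FPKM in parental K1, 5.84 in K1-NanER and 1.30 in K1-ER. A high ratio in this table therefore stands for genes raised in K1-NanER and for genes lowered in K1-ER.

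Some genes were listed at the floor in 1 line, and no fold is given for these. K1-ER alone was at the floor for 22 genes and K1-NanER alone for 6, while 8 were at the floor in both. Tex13, a testis gene on chromosome X, was listed at 0.0944 FPKM in K1-ER against 13.7 in K1-NanER. Chst10, a sulfotransferase, and Cdh19, a cadherin, were at 6.56 and 5.12 FPKM in K1-NanER. D330023K18Rik and Zfp386 had lower K1-NanER levels, 3.04 and 2.18 FPKM. Genes of the opposite kind were fainter, led by Myl7, a cardiac myosin light chain at 5.48 FPKM in K1-ER, followed by Aspdh (3.13 FPKM), Gm2382 (2.12 FPKM), Cyp2s1 (1.53 FPKM) and Tmem119 (1.06 FPKM).

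The authors' calls against parental K1 show what the direct ratio was made of. Against K1, the authors' deposited table has 37.9% of its genes higher and 11.5% lower in K1-ER, and 47.4% higher and 28.3% lower in K1-NanER. Of the 347 genes lower in K1-NanER than in K1-ER, 182 had risen in K1-ER alone, 122 had fallen in K1-NanER alone and 34 had risen in both lines. Of the 214 higher genes, 164 had risen in K1-NanER alone, 28 had fallen in K1-ER alone and 17 had risen in both. A call in 1 line alone largely fixes the direction of the direct ratio, and both comparisons share the K1 samples. The genes called the same way in both lines are freer of this. The 289 genes that rose in both had a median log2 ratio of -0.08, with 17 higher and 34 lower, and the 100 that fell in both had a median of -0.18, with 4 higher and 7 lower.

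Red cell genes lay mostly below the diagonal. The 5 lists of globin, heme, iron, membrane and erythroid transcription factor genes held 43 genes of the table. Of these, 36 (83.7%) had a ratio below 0, beside 55.5% of all genes. At least 2-fold lower were 24 (55.8%), beside 22.3% of all genes, and 0 were at least 2-fold higher, beside 13.8%. Their median log2 ratio was -1.16, beside -0.26 over the whole table. It stayed below 0 when ratios were centred on the table (-0.91), on the locus length class (-1.07) or on the chromosome (-0.67). Of the 43 genes, 35 had been called higher in K1-ER against K1, a call that 37.9% of all genes had. All 299 genes of the table that rose in K1-ER alone had a ratio below 0, so that call largely fixes the direction of such members. The lists were chosen with earlier results on these samples known, and the table holds only called genes, so the counts describe these members.

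Of the globin genes and their chaperone, 3 were much lower in K1-NanER and the others were not. Hbb-bh1, an embryonic beta-like globin and the gene with the highest level in K1-ER, was at 4174 FPKM in K1-ER, with 418 in K1-NanER and 123 in parental K1. Beta-s, an adult beta globin allele whose reads may be shared with its near-identical neighbour, was at 22.4 FPKM and 1.26 FPKM. Ahsp, the chaperone of free alpha globin, was at 7.43 FPKM and 0.619 FPKM. All 3 were over 9-fold lower in K1-NanER. Hba-x, the embryonic alpha-like globin, was instead level between the lines at 299.8 FPKM and 281 FPKM, from a K1 value at the floor. Hbb-y, another embryonic beta-like globin, was at 89.1 FPKM in K1-ER against 141 in K1-NanER.

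Heme genes were mostly lower, but the enzyme of the first step was not. Alad, which joins the first intermediates into a ring, was at 54.2 FPKM in K1-ER against 7.34 in K1-NanER, near its K1 level of 6.51 FPKM. Slc25a38, the mitochondrial glycine importer that feeds the first step, was at 208 FPKM and 67.7 FPKM. Blvrb, biliverdin reductase B, was at 81.2 FPKM and 36.3 FPKM. Alas2, the enzyme of the first and rate-limiting step, was at 25.6 FPKM and 26.0 FPKM, the nearest to equal of the heme genes named here. The transporters Abcb6 and Abcb10 were less than 2-fold lower, with log2 ratios of -0.91 and -0.71.

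Iron genes were mostly lower, with Tfrc and Ncoa4 the exceptions. Tfrc, the receptor that brings iron into erythroblasts, was at 93.7 FPKM in K1-ER against 112 in K1-NanER, and Ncoa4, which delivers ferritin for breakdown, at 11.4 and 12.5 FPKM. Fam132b, the hormone erythroferrone that lowers hepcidin, was at 22.1 FPKM and 5.14 FPKM. Glrx5, needed to build iron-sulfur clusters, was at 209 FPKM and 61.1 FPKM. Slc25a37, the mitochondrial iron importer mitoferrin-1, was at 52.3 FPKM and 21.5 FPKM. In all, 6 of 10 iron genes (60%, beside 22.3% of all genes) were at least 2-fold lower. The others of these were Tfr2, the iron chaperone Pcbp1 and the ferritin light chain Ftl1.

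The membrane list held 14 genes with a median of -0.99. Kcnn4, the calcium-gated potassium channel of the red cell, was at 75.6 FPKM in K1-ER against 15.2 in K1-NanER. Slc4a1, the anion exchanger band 3, was at 6.79 FPKM and 1.43 FPKM, and Aqp3, a water and glycerol channel, at 33.6 FPKM and 8.39 FPKM. The skeleton genes Epb4.9 and Ank1 and the blood group gene Rhd were also over 2-fold lower. Cd24a, Aqp9 and Tmod3 had ratios above 0, of 0.42, 0.36 and 0.36.

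Regulators of the red cell programme followed the same pattern. Nfe2, which drives globin transcription through the locus control region, was at 148 FPKM in K1-ER, with 30.5 in K1-NanER and 8.07 in parental K1. Mafk, its small Maf partner, was at 423 FPKM and 117 FPKM. Ldb1, the bridging protein of the GATA1 complex, was at 149.5 FPKM and 63.0 FPKM, and Zbtb7a, a silencer of fetal globin, at 515 FPKM and 242 FPKM. All 7 members of the list, which also holds Lmo4, Zbtb7b and Sox6, had a ratio below 0. Of these, 5 (71.4%, beside 22.3% of all genes) were at least 2-fold lower. Sox6, however, turned from -0.34 to 0.51 when centred on its chromosome.

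Genes of erythropoietin signalling lay on both sides. Epor, the erythropoietin receptor, was at 485 FPKM in K1-ER against 139 in K1-NanER, while its kinase Jak2 was at 6.23 FPKM and 26.5 FPKM. The feedback inhibitor Cish and the survival kinase Pim1 were lower with log2 ratios of -2.09 and -1.37, and the signalling proteins Sos1 and Gab2 higher with 1.12 and 1.09. Of 10 members, 3 were at least 2-fold lower and 4 higher, beside 22.3% and 13.8% of all genes, so the receptor and its kinase stood on opposite sides.

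Cell cycle genes were split as well. E2f2, an E2F factor that KLF1 is known to activate, was at 151 FPKM in K1-ER, with 26.0 in K1-NanER and 43.4 in parental K1. Ccnd3, the D-type cyclin that sets the number of divisions of red cell precursors, was at 278 FPKM and 64.8 FPKM. Ccne2 was on the other side, and so was Cdkn2c, an inhibitor of the D-cyclin kinases, at 15.1 FPKM and 42.0 FPKM. Of 12 members, 3 were at least 2-fold lower and 3 higher, shares of 25% each beside 22.3% and 13.8% of all genes. The p53 and apoptosis list, with a median of 0.53, also had members on both sides. Of its 16 genes, 3 were at least 2-fold lower and 4 higher (18.8% and 25%, beside 22.3% and 13.8% of all genes). The lower ones were the death genes Bbc3, Aen and Bax, all on chromosome 7, with log2 ratios of -1.92, -1.47 and -1.33. Centred on the chromosome, their ratios were -1.08, -0.62 and -0.49. Trp53inp1 and Tnfaip3 were among the higher genes (1.92 and 2.37).

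Genes of the integrated stress response were mostly lower. The list had a median of -1.01 over 12 genes, 6 of them (50%, beside 22.3% of all genes) at least 2-fold lower and 0 higher. The median was -0.57 centred on the chromosome and -0.47 centred on the locus length class. Ppp1r15a, the phosphatase subunit that restores translation, was at 904 FPKM in K1-ER against 294 in K1-NanER, and Trib3, a pseudokinase induced late in the response, at 60.1 FPKM and 16.4 FPKM. Atf4, the factor at the head of the response, was at 389 FPKM and 329.8 FPKM. The NRF2 and oxidative stress list was near the level of the whole table, with a median of -0.29. Of its 15 genes 4 (26.7%) were lower, Gpx1, Txn1, Osgin1 and Prdx2, and 1 was higher, Srxn1. The cytosolic ribosomal protein genes, 15 in the table, had a median of -0.73 that became 0.16 within classes of locus length and 0.00 within chromosomes.

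Chromatin genes had ratios above the table's median. The 25 histone and chromatin modifier genes had a median of 0.44, with 0 at least 2-fold lower. The 3 at least 2-fold higher, Arid4a, Dnmt3b and Arid4b, were 12% of the list, near the 13.8% of all genes. The median was 0.30 within chromosomes and 0.14 within classes of locus length. The 5 kinesin and myosin genes all had ratios above 0, from 0.19 for Myo1c to 2.37 for Kifc2. Of the Kruppel-like and Sp factors, Klf2 and Klf6 were higher (0.731 against 3.18 FPKM and 4.58 against 12.7 FPKM) and Klf16 was lower (247 against 89.6 FPKM).

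**Figure D2:**
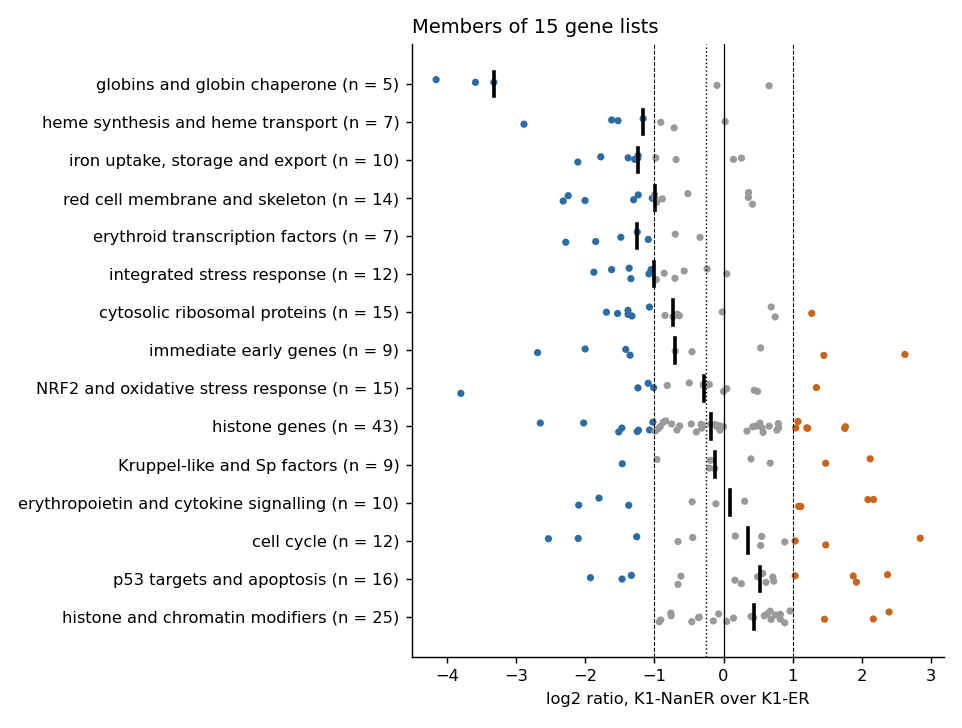
Log2 ratio of K1-NanER over K1-ER (horizontal) for the members of 15 gene lists (rows), each point a gene and each thick bar a list's median. Dashed lines mark 2-fold and the dotted line the table's median of -0.26; the 5 red cell lists at the top have no member past 2-fold on the right, while the erythropoietin, cell cycle and p53 lists have members past 2-fold on both sides.

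Markers of other cells were scarce. Of 8 lists of other cell types, 5 had no row in the table, and the 3 listed genes with a row were Vwf, Cd79a and Dlk1, at 2.88, 1.41 and 0.797 FPKM in K1-ER and 1.99, 1.13 and 0.651 FPKM in K1-NanER. Of 10 erythroblast markers, 5 had a row, Ahsp, Alas2, Epor, Slc4a1 and Tfrc, all above the floor in both lines. A gene without a row was not called in either line, and its level is not known here.

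The ratio also differed by chromosome, a pattern picked out after the values had been seen. Genes on chromosomes 2 to 9 had a median log2 ratio of -0.69 (n = 730), with 229 (31.4%) at least 2-fold lower and 51 (6.99%) higher. Genes on chromosomes 1 and 10 to 19 had a median of 0.44 (n = 791), with 114 (14.4%) lower and 154 (19.5%) higher. Medians of single chromosomes ran from -0.84 on chromosome 7 to 0.80 on chromosome 16. Every chromosome from 2 to 9 had a median below 0, and of the other group only chromosomes 10 and 17 did, with -0.34 and -0.33. Chromosomes 1 and 10 to 19 are those that come first when chromosome names are sorted as text. The cause of this pattern was not tested.

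The split belonged to the K1-NanER values more than to those of K1-ER. In the authors' deposited table, K1-NanER calls on chromosomes 2 to 9 were 192 higher and 336 lower than K1, and on chromosomes 1 and 10 to 19 they were 524 higher and 98 lower. K1-ER calls were divided alike in both sets, with 276 higher and 90 lower in the first and 300 higher and 82 lower in the second. Genes that rose in both lines had a median direct ratio of -0.34 (n = 107) on chromosomes 2 to 9 and 0.05 (n = 173) on the others, and genes that fell in both lines one of -0.43 (n = 57) and 0.00 (n = 39). The fetal liver table, from unrelated samples, had 26.0% of its genes on chromosomes 2 to 9 and 22.0% of those on chromosomes 1 and 10 to 19 lower in Nan/+.

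The lists were therefore also read within the sets. Red cell genes were lower on both, with a median of -1.20 (15 of 26 genes at least 2-fold lower) on chromosomes 2 to 9 and of -1.09 (8 of 15) on chromosomes 1 and 10 to 19. These counts are 57.7% and 53.3%, beside 31.4% and 14.4% of all genes of the sets. Every gene that rose in K1-ER alone had a ratio below 0 in both sets (n = 169 and n = 126). Most red cell genes had been called higher in K1-ER, and that call largely fixes the direction of such members here too. The integrated stress response list had medians of -1.02 (n = 8) and -0.81 (n = 4). Several other lists did not keep a sign. The p53 and apoptosis list had a median of -1.33 (n = 5) on chromosomes 2 to 9 and 0.61 (n = 11) on the others, erythropoietin signalling -1.80 (n = 3) and 0.30 (n = 7), and cell cycle genes -0.14 (n = 6) and 0.54 (n = 6). Among larger families, zinc finger genes had a median of -0.70 (n = 32) on chromosomes 2 to 9 and 0.86 (n = 19) on the others, ubiquitin ligase genes -0.62 (n = 25) and 0.66 (n = 20), and splicing factors -1.05 (n = 9) and 0.71 (n = 11). The chromatin modifiers had -0.41 (n = 6) and 0.63 (n = 18), and only 1 of their 3 higher genes, Dnmt3b, lies on chromosomes 2 to 9.

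**Figure D3:**
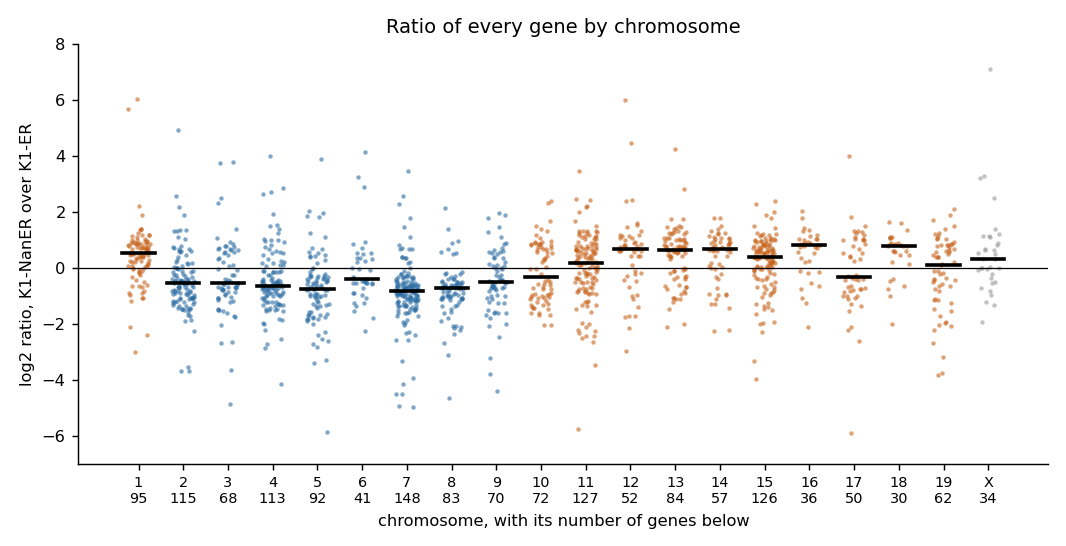
Log2 ratio of K1-NanER over K1-ER (vertical) of every gene by chromosome (horizontal, number of genes below each name), with a black bar at each median. Chromosomes 2 to 9 (blue) have medians below 0, whereas those of chromosomes 1 and 10 to 19 (orange) reach 0.80, with chromosomes 10 and 17 below 0; chromosome X is grey.

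Short loci were lower and long loci higher in K1-NanER. In 5 classes of locus length with near equal numbers of genes, the median log2 ratio was -0.89 for loci of 275 to 5598 bp, then -0.58, -0.42 and 0.36, and 0.53 for loci of 53885 to 972258 bp. The share at least 2-fold lower was 46.5% in the shortest class and 8.04% in each of the 2 longest. Long loci were commoner on chromosomes 1 and 10 to 19, yet the order held in outline within both sets, from -1.11 to -0.25 on chromosomes 2 to 9 and from -0.38 to 0.67 on the others. The longest loci thus had a median above 0 on chromosomes 1 and 10 to 19 but below 0 on chromosomes 2 to 9. With genes also divided into 3 equal classes by level, the longest loci had a median of -0.35 (n = 45) in the highest class and 0.63 (n = 171) in the lowest.

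Genes near peaks of the different factors had different ratios. A gene was linked to a peak when the authors named it as the nearest gene within 300 kb. The 375 genes with KLF1 peaks alone had a median log2 ratio of -0.39, with 27.7% at least 2-fold lower and 6.93% higher. The 338 genes with peaks of both factors had a median of -0.49, with 29.3% lower and 10.9% higher. The 75 genes with Nan-KLF1 peaks alone were the reverse, with a median of 0.58, 5.33% lower and 29.3% higher. The 768 genes with neither had a median of -0.12, with 18.2% lower and 16.8% higher. Centred on the chromosome, these 4 medians were -0.091, -0.21, 0.44 and 0.076, and centred on the locus length class they were -0.16, -0.22, 0.46 and 0.10.

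The order of the 4 medians was the same within both chromosome sets, though genes with KLF1 peaks alone had a median of 0.35 on chromosomes 1 and 10 to 19 and -0.75 on chromosomes 2 to 9. Nan-KLF1 peaks alone went with 37.5% higher genes on chromosomes 1 and 10 to 19 (n = 32) and 22.0% on chromosomes 2 to 9 (n = 41), beside 24.3% and 8.49% of genes with neither peak. KLF1 peaks alone went with 21.0% and 36.6% lower genes, beside 9.42% and 27.9% of genes with neither. Where only peaks at promoters were counted, the 38 genes with Nan-KLF1 alone had a median of 0.20, with 21.1% higher and 15.8% lower, a smaller contrast. The median of genes with Nan-KLF1 peaks alone was also smaller, at 0.21, with peaks of at least 50-fold and, at 0.086, with peaks within 10 kb of the locus. In the 10 kb setting it was close to the median of genes with neither peak. Peaks were called on 1 library per factor, and being nearest does not show that a peak acts on the gene.

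**Figure D4:**
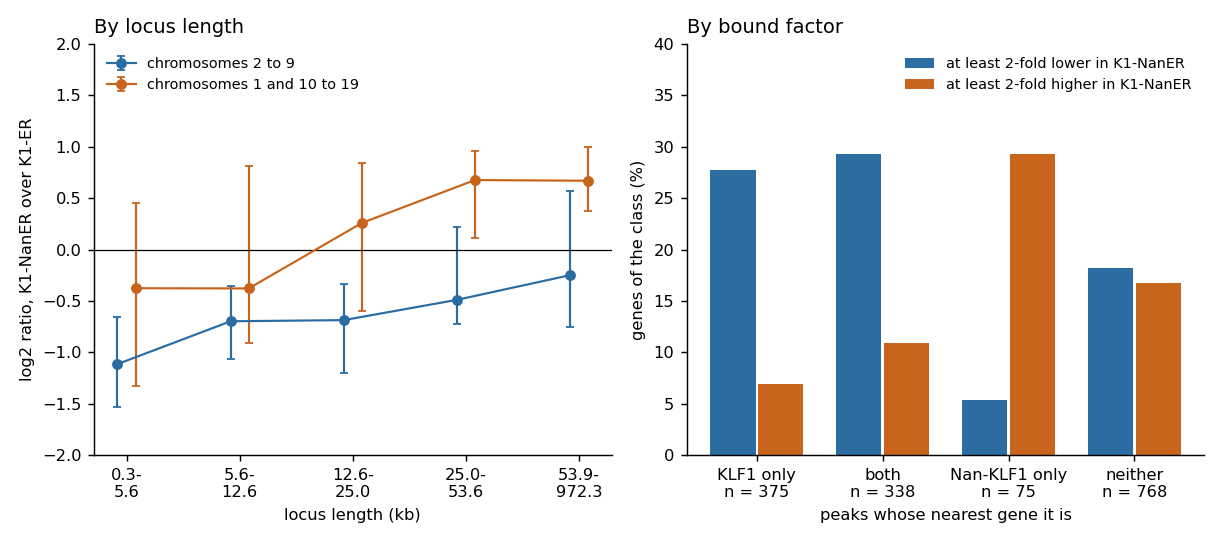
Left, median log2 ratio of K1-NanER over K1-ER by locus length class (kb), with bars from the lower to the upper quartile, for chromosomes 2 to 9 (blue) and 1 and 10 to 19 (orange). Right, percent of genes at least 2-fold lower (blue) or higher (orange) by the factor whose peaks name the gene as nearest; genes with Nan-KLF1 peaks alone have 29.3% higher and 5.33% lower.

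The motif forms printed above separated the lower genes further. Among genes whose strongest KLF1 peak had a CCNC motif with A at the fifth base, 42.5% were at least 2-fold lower (n = 120, median -0.83). With G at the fifth base the share was 22.0% (n = 254, median -0.20), and with T it was 31.8% (n = 66, median -0.52), beside 28.5% of all 713 genes with a KLF1 peak. On chromosomes 2 to 9 the shares were 50.8% with A and 32.2% with G, and on chromosomes 1 and 10 to 19 they were 32.7% and 14.2%. Both forms with A were alike, with medians of -0.83 for ccccAccc (n = 70) and -0.81 for ccacAccc (n = 50), and so were those with G, with -0.22 for ccccGccc (n = 138) and -0.20 for ccacGccc (n = 116).

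The 6 promoters printed above differ in their motif. In Kcnn4 and Slc5a6 the marked KLF1 motif is CCCTGCCC, with T at the fourth base, outside the CCNC classes. Aqp3 and Atg4d, an enzyme that trims autophagy proteins, have a KLF1 promoter peak with A at the fifth base. Their enrichments are 105-fold and 132-fold by the authors' value, and no Nan-KLF1 peak names either as its nearest gene. A Nan-KLF1 peak assigned to Cdkn2d (chr9:21095427-21096258) lies within 10 kb of the Atg4d locus. Atg4d was at 99.0 FPKM in K1-ER against 18.0 in K1-NanER. Map1a has a KLF1 peak with G at the fifth base at its promoter (197-fold) and a stronger intronic peak with A (332-fold). No Nan-KLF1 peak names Map1a as its nearest gene. Kcnn4 has promoter peaks of both factors, of 243-fold for KLF1 and 273-fold for Nan-KLF1, and was lower all the same. Slc5a6, the multivitamin transporter, also has both, of 183-fold and 175-fold, and was at 17.0 FPKM in K1-ER against 66.4 in K1-NanER. Sec23a has both too, of 111-fold and 78.0-fold. Peaks of both factors thus occurred on genes of either direction, and enrichments of separate lists are not compared.

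Fetal liver gives a second view of the mutant, in heterozygous Nan/+ embryos that also carry normal KLF1. The authors' deposited liver table lists 793 called genes, 75.4% higher and 24.6% lower in Nan/+ than in wild type, of which 102 are also in the 4sU table. Of 35 genes that fell in Nan/+ liver, 29 had a direct ratio below 0. At least 2-fold lower in K1-NanER were 20 (57.1%), beside 22.3% of all genes. Of 67 genes that rose in liver, 54 also had a ratio below 0. Among these 67, 24 (35.8%) were at least 2-fold lower and 8 (11.9%) higher, beside 22.3% and 13.8% of all genes. Genes of the 4sU table outside the liver table were below 0 in 53.6%. Genes of the liver table were thus mostly lower in K1-NanER whichever way they went in liver, though the share differed by chromosome set. Of genes that rose in liver, 94.7% (n = 38) had a ratio below 0 on chromosomes 2 to 9. On chromosomes 1 and 10 to 19 the share was 60.7% (n = 28). For genes that fell in liver the shares were 90.5% (n = 21) and 76.9% (n = 13). Among all genes of these sets, 77.1% and 36.2% were below 0.

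Some genes went the same way in both systems. E2f2 was at 94.3 FPKM in wild-type and 16.1 FPKM in Nan/+ liver, Aqp3 at 12.8 and 1.97 FPKM, and Fam132b at 4.99 and 1.06 FPKM, all lower in K1-NanER too. Pklr, the red cell pyruvate kinase, was at 227 and 80.9 FPKM in liver and at 3.74 FPKM in K1-ER against 0.130 in K1-NanER. Epb4.9, the skeleton protein dematin, had the lowest liver ratio of these genes, with 84.8 and 7.98 FPKM. Kifc2 was higher in both, at 0.59 and 13.02 FPKM in liver, and so were Foxh1 (2.60 and 63.0 FPKM), Insl6 (0.41 and 8.01 FPKM) and the zinc and iron transporter Slc39a14 (6.85 and 178 FPKM). Hbb-bh1 went opposite ways, at 429 FPKM in wild-type and 4399 FPKM in Nan/+ liver but about 10-fold lower in K1-NanER than in K1-ER. Hba-x was higher in Nan/+ liver, at 310.2 and 5717 FPKM, while the lines were level.

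**Figure D5:**
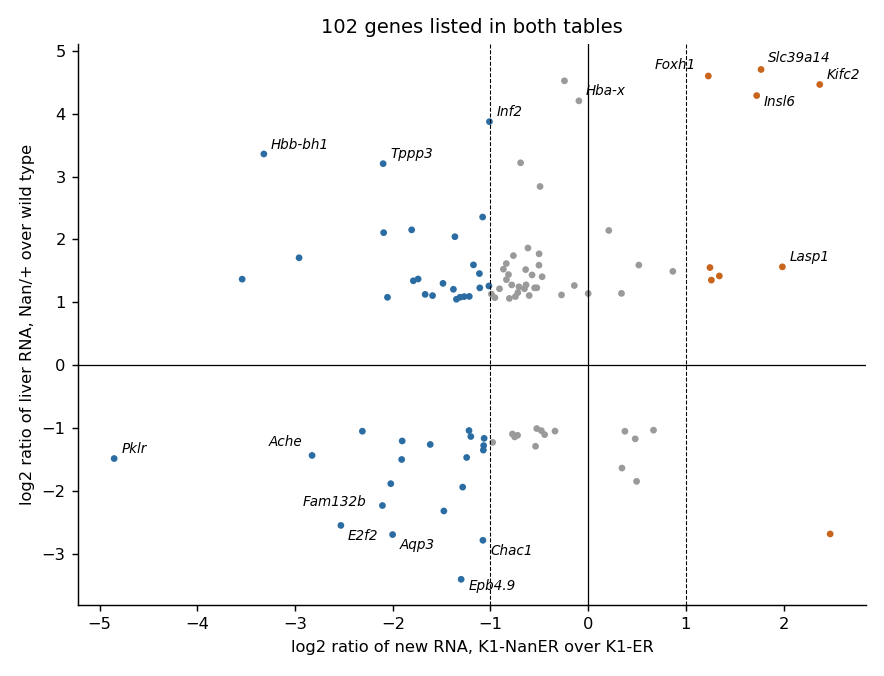
Log2 ratio of new RNA of K1-NanER over K1-ER (horizontal, dashed lines at 2-fold) against the log2 ratio of Nan/+ over wild-type fetal liver RNA (vertical) for the 102 genes in both tables. Most points lie left of 0 in the upper and the lower part alike; Kifc2, Foxh1, Insl6 and Slc39a14 stand at the top right and E2f2, Aqp3 and Fam132b at the lower left.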

How the data were processed

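Levels of 4sU-labelled RNA are the authors' FPKM, 1 pooled value per line, as deposited, with no depth or replicate values. Build mm9, the aligner TopHat2 2.0.10 and the peak caller MACS 1.4.2 appear in the submitters' processing notes; which program computed FPKM, and whether counting used strand, is not given in the sources used here. The deposited log2 fold changes, p-values and q values are the authors' own comparisons with K1 or between livers, and a gene was called at a q of at most 0.05. Peaks carry a fold enrichment, a ratio deposited by the authors, and a rank, the authors' score within a list, used to read which peaks they intersected; each factor's peaks come from 1 library. The direct log2 ratio was computed from the deposited FPKM columns with Python 3.11.15, numpy 2.4.6 and pandas 2.3.3, with levels under 0.1 FPKM raised to 0.1 and 2-fold as the threshold, and the counting was tested on simulated data. No test was run. Locus length is end minus start in the deposited table, coordinates are mm9 and printed starts are 1 higher than deposited. Promoter sequences are from RefSeq on GRCm38.p6, matched by symbol, and were not placed against mm9 coordinates. Named genes were Klf1 and Esr1, the 12 lowest and the 12 highest ratios with at least 5 FPKM in the higher line and both lines above the floor, the 5 highest levels each way among genes at the floor in 1 line, up to 4 members per list past 2-fold each way and the 2 with the highest level, and genes with opposite calls. Other members named from lists, the liver genes and the neighbours in the closing section were chosen after their values were seen. Members and the 38 gene lists were chosen with earlier results of these data known. Nothing in the labels says whether clones were cultured or labelled together.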

Additional observations from a re-analysis of the deposited data

How the results depend on the processing

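No paired analysis was possible because the deposited table has 1 pooled value per line, so neither the replicate block nor leaving out a library could be run. Counts of higher and lower genes, 214 and 347, became 454 and 602 at 1.5-fold, 45 and 93 at 4-fold, 21 and 42 among the 390 genes called against K1 in both lines, and 350 and 239 with ratios centred on the table's median. Lower genes were 61.9% of those past 2-fold, 40.6% when centred on the table's median, 49.3% on the locus length class and 53.5% on the chromosome. The red cell lists' median of -1.16 was -0.91 centred on the table and -0.67 on the chromosome. The shortest loci had -0.32 among genes called in both lines, -0.53 centred on the chromosome, and -1.12 on chromosomes 2 to 9 and -0.39 on chromosomes 1 and 10 to 19 when classes were formed within each set. The longest loci had 0.046, 0.22, -0.29 and 0.67 under the same settings. Medians by peaks were -0.091 for KLF1 alone centred on the chromosome, -0.22 and -0.21 for both factors centred on length and chromosome, and 0.10 and 0.076 for neither. The ribosomal protein list turned to 0.16 within length classes. Of genes that fell in liver, 95.2% of those past 2-fold were lower in K1-NanER (20 lower and 1 higher). Genes that rose in liver were also mostly lower past 2-fold, with 24 lower and 8 higher. Chromosome settings were added after seeing the data, and the cause of these shifts was not tested. The median of 0.58 for genes with Nan-KLF1 peaks alone was 0.20 with promoter peaks, 0.21 with peaks of at least 50-fold and 0.086 with peaks within 10 kb, and that for neither was 0.071 with peaks within 10 kb.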

Other observations

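Neighbouring genes often stood on the same side of the direct comparison, an observation made after the values were seen. Of 175 pairs of next neighbours in the table less than 10 kb apart, 80.0% had ratios of the same sign, beside 59.8% of 478 pairs over 1 Mb apart. In 45 of the close pairs both genes passed 2-fold the same way, and in 4 they passed it in opposite ways. For the distant pairs these counts were 32 and 9. The part of locus length in this difference was not tested. Whether reads of overlapping or adjoining transcripts were told apart by strand is not known here.

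The longest run lay on chromosome 19, where Sipa1, Map3k11, Ehbp1l1, Fam89b and Sssca1 follow each other in the table between 5651185 and 5731721 (mm9). Ehbp1l1 was at 147 FPKM in K1-ER against 22.6 in K1-NanER, Map3k11, a kinase of stress signalling, at 37.7 and 8.96 FPKM, and Sssca1 at 129 and 32.8 FPKM, so all 5 were lower in K1-NanER although the chromosome's median ratio is 0.11. On chromosome 5, Agfg2 (222 against 44.7 FPKM), Nyap1, Tsc22d4 (309 against 31.6 FPKM) and Mepce (109 against 33.7 FPKM) were lower together. On chromosome 7, Lrrc4b, Aspdh and Josd2 (132 against 26.7 FPKM) formed such a run beside each other. Pairs on the higher side included Jak2 with Insl6 (3.19 against 10.6 FPKM for Insl6), Trp53inp1 with Ccne2, and Sh2d7 with Cib2 (4.61 against 17.2 FPKM for Cib2). Rep15 and Mansc4, also neighbours, were at the floor in K1-ER and at 0.941 and 0.744 FPKM in K1-NanER.

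Genes of other groups with high levels also differed. Rrad, a small GTPase that restrains calcium channels, was at 1.29 FPKM in parental K1, 116 in K1-NanER and 603 in K1-ER. Mid1ip1, an activator of fatty acid synthesis, was at 35.2 FPKM in parental K1, 356 in K1-NanER and 1351 in K1-ER. Both had an intermediate level in K1-NanER. Ier2, an immediate early gene, was at 205 FPKM in K1-ER against 31.8 in K1-NanER, while Jun was at 0.306 and 1.88 FPKM. Hist2h3b was at 462 and 73.7 FPKM and Hist1h3f at 48.5 and 163 FPKM, so histone genes, which share near-identical sequence, were found far apart on both sides.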
